A study of Homo sapiens with 6 samples.

Results

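The genes described here are those of actin and its MRTF-SRF transcription switch in U937 cells: MRTFA, SRF, ACTB, ACTG1, TAGLN2, VCL, MYH9, MYL9, FLNA and PPP1R18. The 10 genes were chosen by symbol, with earlier results of these libraries known, and were matched to Ensembl identifiers. Of the 10, 9 had a row among the 18798 genes of the count table and all 9 had enough counts to be tested, while MYL9, a myosin regulatory light chain gene, is not analysed here. Because the choice was made with the ΔNSPs and Control values in view, the members' levels and differences are given as a description, without a test of each member.

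U937 is an established human line of monocytic origin. The 3 Control libraries came from separate lines transduced with control plasmids. The 3 ΔNSPs libraries came from clones that the labels call independent, in which CTSG, ELANE and PRTN3 were depleted together; these genes encode the neutrophil serine proteases cathepsin G, neutrophil elastase and proteinase 3. All 6 libraries are total RNA from cells kept in RPMI medium with serum under geneticin selection. Each clone is 1 library, so the spread between clones holds both clonal and technical differences. The labels used here do not say how the depletion was made.

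Actin filaments give a cell its shape, its motility and its capacity to engulf particles, and a myeloid cell rebuilds them constantly. MRTFA, a cofactor of the transcription factor SRF, binds monomeric actin. When monomers are drawn into filaments, MRTFA is released into the nucleus and activates SRF at CArG boxes, short A/T-rich elements, in the promoters of actin and of many actin-binding proteins. SRF also works with the ternary complex factors (TCFs) ELK1, ELK3 and ELK4, which drive immediate early genes instead.

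Promoter sequences from RefSeq (GRCh38.p14) were matched for 8 of the 10 members, all but ACTB and MYL9, and a CArG box lay within 250 bases before the start in 3 of the 8. These 3 are shown because they carry the element through which SRF acts, with the box in capitals, on the strand of the gene. The ACTG1 run is kept to 30 bases, because the box lies in a leader exon of a longer annotated transcript.

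SRF, chr6:43171149-43171268, plus strand: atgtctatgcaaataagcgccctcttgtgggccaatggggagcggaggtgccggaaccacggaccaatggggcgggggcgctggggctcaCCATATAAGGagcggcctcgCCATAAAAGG
FLNA, chrX:154374639-154374754, minus strand: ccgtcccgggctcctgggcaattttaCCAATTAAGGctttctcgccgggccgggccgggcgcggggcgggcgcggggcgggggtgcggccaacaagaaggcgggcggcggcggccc
ACTG1, chr17:81512874-81512903, minus strand: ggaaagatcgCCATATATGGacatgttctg

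SRF carried 2 boxes, which began 30 and 10 bases before its start, and those of FLNA and ACTG1 both began 94 bases before it. The element reads the same in form on both strands, so 1 search covers both. Over all genes with a promoter sequence, 1.44% had a box in the same window. Among the other MRTF-SRF targets listed here, 6 of 20 had one, and among the genes of actin monomer binding and turnover 0 of 20. No box was found in the windows of MRTFA, TAGLN2, VCL, MYH9 or PPP1R18. A match is a stretch of letters and not a measured binding site.

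The libraries held 11476619 to 13782854 counts. CTSG was at 45.2 to 136 CPM (a gene's counts relative to the scaled total of its library) in the clones against 1895 to 2752 CPM in Control, ELANE at 1.89 to 41.8 against 969.6 to 1325 CPM, and PRTN3 at 0.855 to 63.2 against 147 to 539 CPM. All 3 targeted genes were lower in every clone than in every Control line. Over the 14797 genes tested with edgeR, 3 passed an adjusted p of 0.05 (0.0203%), and 17.8% had an unadjusted p under 0.05. All 9 myeloid markers were in the table, with a summed level of 933 to 1029 CPM in Control and 839 to 1191 CPM in the clones. Most of that sum came from CEBPA, CD4, LYZ, SPI1 and CD33. CSF1R, ITGAM, CD68 and FCGR1A were low, at no more than 4.24, 11.7, 1.14 and 7.36 CPM in any library. Marker sums of smooth muscle, fibroblast, epithelium and T cells were at most 17.2 CPM in any library, and that of B cells at most 25.2 CPM. The erythroid sum, nearly all of it HBB, was 74.7 to 134 CPM in Control and 86.0 to 116 CPM in the clones.

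The libraries did not fall simply by label, and this touches several members. The root mean square log2 difference between Control line 1 and Control lines 2 and 3 was 0.484 and 0.477, against 0.349 between lines 2 and 3. Clone 1 lay at 0.483 from both of those lines, closer than to clones 2 and 3 (0.744 and 0.709). Clones 2 and 3 were nearer to Control line 1 (0.644 and 0.635) than to any other Control line (0.771 to 0.794). Control line 1 itself lay nearer to the other Control lines and to clone 1 (0.532) than to clones 2 and 3. For MRTFA, VCL and PPP1R18, clone 1 is also set beside Control lines 2 and 3. Clones 2 and 3 are set beside Control line 1. These ratios are a description only.

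Per kilobase of annotated exon the members spanned a wide range, in the order ACTB, ACTG1, TAGLN2, FLNA, MYH9, SRF, PPP1R18, VCL and MRTFA in Control. ACTB stood at 1594 ± 46.3 CPM per kb and ACTG1 at 1014 ± 140.2 CPM per kb (mean ± SD, n = 3). TAGLN2 was at 328 ± 8.15, FLNA at 78.2 ± 4.07 and MYH9 at 62.9 ± 5.40 CPM per kb. SRF and PPP1R18 did not differ beyond their spread in Control, at 21.0 ± 0.589 and 20.6 ± 0.801 CPM per kb. In the clones PPP1R18 stood above SRF, at 42.6 ± 8.69 against 23.8 ± 2.45 CPM per kb. VCL was at 13.5 ± 2.28 and MRTFA at 4.51 ± 2.56 CPM per kb in Control, the lowest of the 9. In the clones VCL (10.9 ± 1.85) and MRTFA (7.37 ± 3.53) were within their spread of each other, as were FLNA (79.5 ± 13.0) and MYH9 (66.3 ± 2.83).

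**Figure D1:**
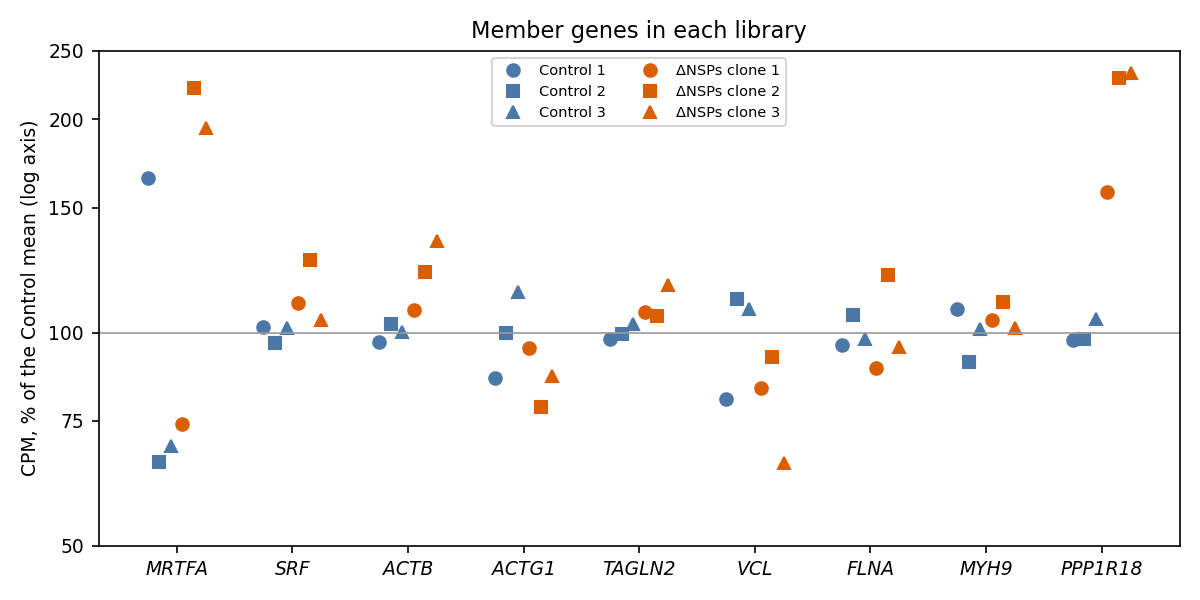
Each point is the CPM of 1 member gene in 1 library as a percentage of that gene's Control mean, on a log axis (blue, Control; orange, ΔNSPs clones; circles, squares and triangles, replicates 1, 2 and 3). PPP1R18 lies at 158% to 233% in all 3 clones, while MRTFA is high in Control line 1 and in clones 2 and 3 and low in the other libraries.

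The coactivator came first in the pathway and varied most. MRTFA (ENSG00000196588, chromosome 22, positions 40410281 to 40636702 of GRCh38) was at 48.8, 19.3 and 20.4 CPM in Control lines 1 to 3 and at 21.9, 65.2 and 57.4 CPM in clones 1 to 3. It was high in Control line 1 and in clones 2 and 3, low in Control lines 2 and 3 and in clone 1, and the groups overlapped. The highest library was 3.37-fold above the lowest, a coefficient of variation (CV, SD over mean) of 53.4% over the 6 libraries. The log2 fold change (ΔNSPs minus Control) was 0.71 (SE 0.47), and it ran from 0.43 without clone 2 to 1.28 without Control line 1. Clone 1 was 1.10-fold the mean of Control lines 2 and 3. The mean of clones 2 and 3 was 1.26-fold Control line 1. Both ratios were smaller than that of the group means, 1.63-fold. What part differences among lines and among clones had in the MRTFA difference was not tested.

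The median of the genes near MRTFA did not show this pattern, which does not describe each of those genes. Over the 103 tested genes within 5 Mb of it, the median log2 CPM relative to Control was 0.0089 in Control line 1, -0.016 in clone 1, 0.073 in clone 2 and 0.024 in clone 3. The genes with the most similar profile, by root mean square difference of centred log2 CPM over the 6 libraries among 7451 protein-coding genes averaging 20 CPM or more, were MS4A3 (0.097), SIGLEC12 (0.15) and SH3BP5L (0.18). The median of all candidates was 0.75. MS4A3, a myeloid membrane protein gene on chromosome 11, read 109.1, 46.7 and 43.2 CPM in Control lines 1 to 3 and 55.8, 138 and 134 CPM in the clones. SIGLEC12, a gene of the Siglec family, lies on chromosome 19 and SH3BP5L on chromosome 1.

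**Figure D2:**
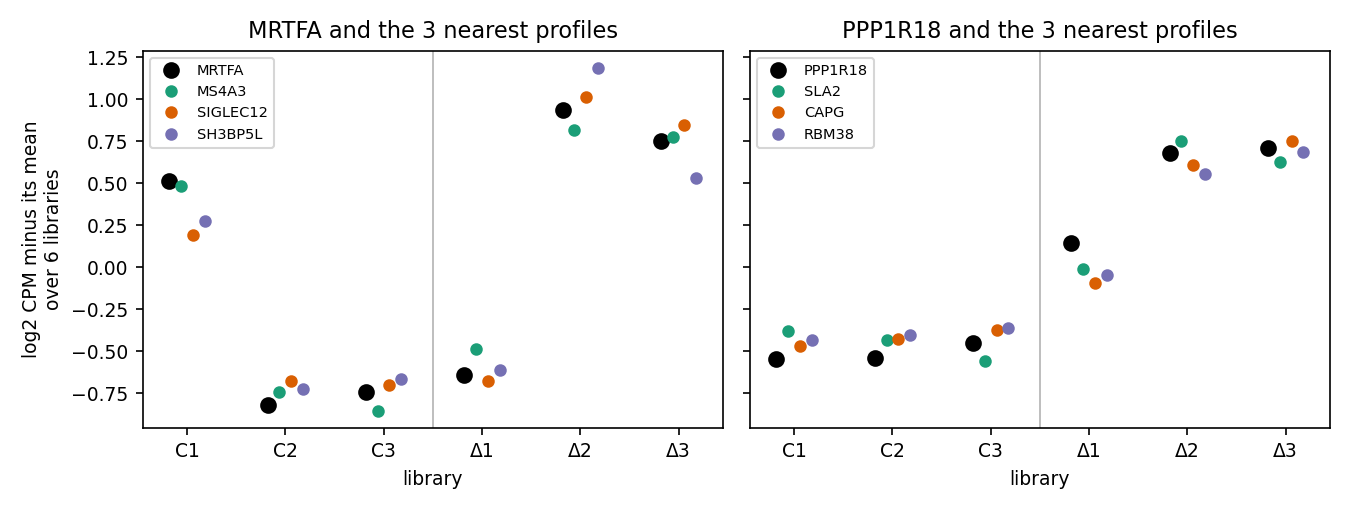
Points are log2 CPM minus the gene's own mean over the 6 libraries (C, Control lines; Δ, ΔNSPs clones), for MRTFA and PPP1R18 in black and, in colour, the 3 genes nearest to each. The MRTFA panel shows Control line 1 grouped with clones 2 and 3; in the PPP1R18 panel all Control lines are low and clone 1 lies between them and clones 2 and 3.

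SRF, the DNA-binding partner, varied little. SRF (ENSG00000112658, chromosome 6, 43171299 to 43181507) was at 89.7, 85.2 and 89.2 CPM in Control and at 96.8, 111.6 and 91.8 CPM in the clones. The groups did not overlap, but clone 3 lay only just above Control line 1, and the log2 fold change was 0.19 (SE 0.11). Non-overlap with the clones higher was found in 12.2% of all genes tested and in 4 of the 9 members (SRF, ACTB, TAGLN2 and PPP1R18), and nothing is read from that count because the members were chosen with these values known. The members' median log2 fold change was 0.13, against 0.0023 over all genes tested. RNA from a cell population does not tell more expressing cells from more RNA in each cell.

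The list of other SRF cofactors and of actin-binding or actin-oxidizing proteins gave 0 calls among 10 tested genes in edgeR and 0 in DESeq2. It had 1 gene higher (PHACTR2) and 0 lower with an edgeR p under 0.05 before adjustment. The median log2 fold change was 0.072. Over all genes, 3.98% passed in DESeq2, and at an unadjusted p under 0.05 in edgeR 9.23% were higher and 8.6% lower. MRTFB, the paralog of MRTFA, read 15.8, 19.6 and 18.3 CPM in Control and 17.9, 10.7 and 9.94 CPM in the clones. Its levels were lower in clones 2 and 3 than elsewhere, which is not the split seen in MRTFA (edgeR log2 fold change -0.48, unadjusted p = 0.0829; named after its values were seen). ELK4, the TCF with the highest mean over the 6 libraries, was at 60.0, 91.1 and 93.0 CPM in Control and 81.3, 60.7 and 59.0 CPM in the clones. That order is the reverse of MRTFA's: low in Control line 1 and in clones 2 and 3. ELK3 was at 64.9 ± 4.43 CPM in Control and 72.7 ± 6.58 CPM in the clones (edgeR adjusted p = 0.459). MICAL1, an oxidase of actin, stood at 45.3 CPM in clone 2 against 3.37 to 15.7 CPM in the other 5 libraries; it too was named after its values were seen.

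Of the 2 cytoplasmic actins, ACTB was higher in the clones and ACTG1 was not. ACTB (ENSG00000075624, chromosome 7, 5527147 to 5563784), which encodes beta-actin, was at 5438, 5762 and 5626 CPM in Control and at 6042, 6819 and 7552 CPM in clones 1 to 3. Every clone lay above every Control line, with the largest gap in clone 3, and the log2 fold change was 0.28 (SE 0.11). ACTG1 (ENSG00000184009, chromosome 17, 81509971 to 81523847), which encodes gamma-actin, was at 2618, 3030 and 3457 CPM in Control and at 2882, 2385 and 2637 CPM in the clones. Clone 2 was the lowest library and Control line 3 the highest, the groups overlapped, and the log2 fold change was -0.20 (SE 0.13).

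The balance of both actins within a library does not depend on the scaling between libraries. The ratio of ACTB to ACTG1 counts was 2.08, 1.90 and 1.63 in Control and 2.10, 2.86 and 2.86 in clones 1 to 3. Clones 2 and 3 stood apart from the rest, and clone 1 was level with Control line 1. Group means were 1.87 ± 0.227 and 2.61 ± 0.441. Per kilobase of exon the ratio was 1.59 ± 0.193 in Control and 2.22 ± 0.375 in the clones. Together both genes took 0.798% to 0.914% of all counts in Control and 0.908% to 0.993% in the clones. This ratio was chosen after the values were seen.

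The actins have near-identical copies in the genome. The annotation lists 30 pseudogenes of ACTB and ACTG1, and 7 of them had a row in the table, the highest at 0.958 CPM. Reads that fit several copies may have been dropped or split, since the handling of such reads is not given in the sources used here. ACTA2, the smooth muscle actin, was low in every library. ACTA2 was at 5.96, 8.33 and 7.28 CPM in Control and at 4.06, 1.66 and 2.11 CPM in the clones, lower in all 3, with a log2 fold change of -1.45 (SE 0.35). ACTA2 passed in DESeq2 (adjusted p = 0.00954) and not in edgeR (adjusted p = 0.171). ACTA1, ACTC1, ACTG2 and ACTBL2 are not analysed here.

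ACTB is often used as a reference for normalization, so its stability was set beside 12 other reference genes. The CV over the 6 libraries was 13.2% for ACTB and 13.3% for ACTG1. The 12 reference genes had a median CV of 10.9%, from 2.18% for TBP to 26.6% for GUSB, and GAPDH was at 9.39%. For all tested genes averaging 100 CPM or more, the median CV was 11.5%. GAPDH was at 3865, 3441 and 3965 CPM in Control and at 3475, 4194 and 4328 CPM in the clones, so the groups overlapped, and 0 of the 12 passed in edgeR or DESeq2 or at an unadjusted p under 0.05. The ACTB mean in the clones was 1.21-fold the Control mean.

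**Figure D3:**
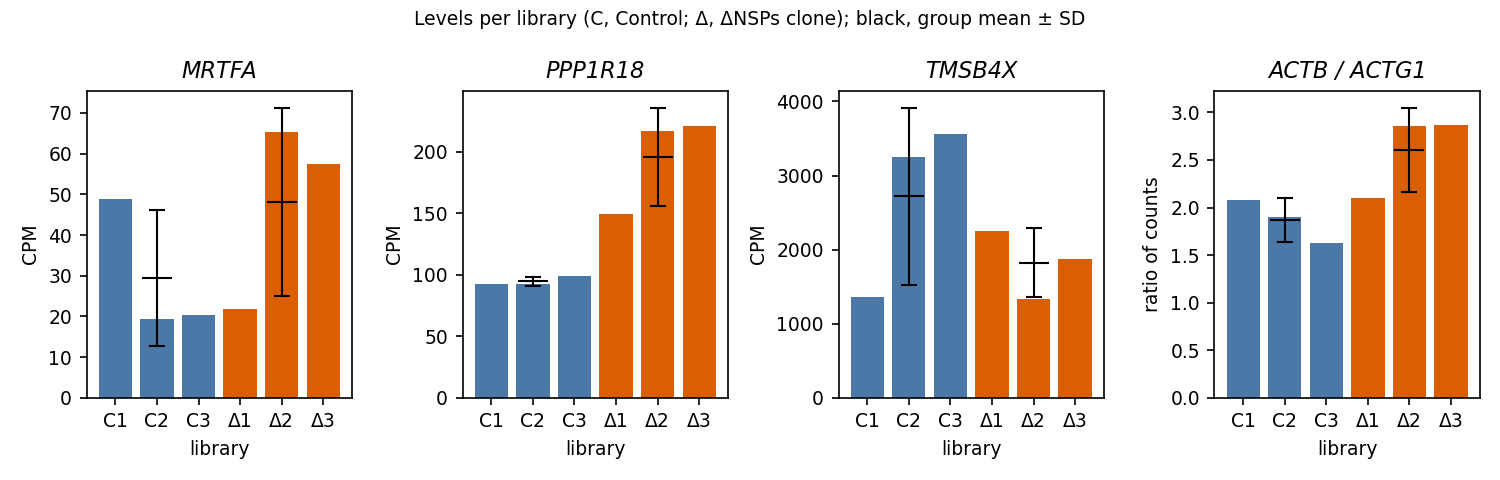
Bars are CPM of MRTFA, PPP1R18 and TMSB4X, and the ratio of ACTB to ACTG1 counts, in each library (C, Control lines, blue; Δ, ΔNSPs clones, orange), with the group mean and SD in black over 3 libraries. TMSB4X is lowest where MRTFA is highest, and the ACTB to ACTG1 ratio reaches 2.86 in clones 2 and 3.

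PPP1R18 showed the largest difference between groups among the members. PPP1R18 (ENSG00000146112, chromosome 6, 30676389 to 30687895) encodes phostensin, which binds actin filaments and brings protein phosphatase 1 to them. It was at 92.4, 92.9 and 99.0 CPM in Control and at 149.6, 217 and 221 CPM in clones 1 to 3. The Control lines lay close together, all clones were above them, and clone 1 was the lowest clone. The group means were 94.8 ± 3.68 and 196 ± 39.9 CPM, 2.07-fold apart, with a log2 fold change of 1.05 (SE 0.16) that ran from 0.95 to 1.20 when single libraries were left out. Clone 1 was 1.56-fold the mean of Control lines 2 and 3, and clones 2 and 3 averaged 2.37-fold Control line 1. Because the groups did not overlap, both ratios had to exceed 1, and nothing further is read from them.

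The median of the genes around PPP1R18 was near the Control level, which does not describe each of those genes. Over the 123 tested genes within 5 Mb, the median log2 CPM relative to Control was 0.025 in clone 1, 0.026 in clone 2 and 2.99e-05 in clone 3. The nearest profiles were those of SLA2, an adaptor of immune receptor signalling on chromosome 20 (distance 0.12), of CAPG (0.12) and of RBM38, an RNA-binding protein gene on chromosome 20 (0.13), against a median of 0.55 for all candidates. CAPG, which caps filament ends in macrophages, also belongs to the capping list below.

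The catalytic subunits of protein phosphatase 1 and other subunits that direct it to actin structures gave 0 calls among 6 tested genes in edgeR and DESeq2, 1 higher and 0 lower with an edgeR p under 0.05 before adjustment, and a median log2 fold change of 0.026. PPP1CA, a catalytic subunit, was at 246 ± 20.6 CPM in Control and 304 ± 29.3 CPM in the clones (edgeR adjusted p = 0.230). PPP1CC was at 320.4 ± 15.6 CPM in Control and 284 ± 13.4 CPM in the clones (edgeR adjusted p = 0.359). The groups did not overlap for either gene, and the direction was opposite.

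TAGLN2, FLNA and MYH9 varied least among the filament-binding members. TAGLN2 (chromosome 1, 159918107 to 159925732), which encodes transgelin-2, an actin-stabilizing protein of the calponin family, was at 798, 811 and 838 CPM in Control and at 872, 862 and 953 CPM in the clones. The groups did not overlap, and the log2 fold change was 0.13 (SE 0.091). FLNA (chromosome X, 154348524 to 154374638) encodes filamin A, which crosslinks filaments into networks, and it was at 795, 877 and 812 CPM in Control and at 738, 997 and 789 CPM in the clones. Clone 2 was the highest library and clone 1 the lowest, so the clones enclosed the Control lines, with a log2 fold change of 0.023 (SE 0.13). MYH9 (chromosome 22, 36281277 to 36388067), the heavy chain of non-muscle myosin IIA, was at 613, 516 and 573 CPM in Control and at 591, 626 and 576 CPM in the clones. Its groups overlapped, its log2 fold change was 0.076 (SE 0.10), and its CV of 6.63% was close to the 6.49% of TAGLN2.

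VCL was the other member with a lower mean in the clones, besides ACTG1. VCL (ENSG00000035403, chromosome 10, 73995193 to 74121363) encodes vinculin, which ties integrin adhesions to actin. It was at 109.1, 151 and 146 CPM in Control and at 113, 125 and 88.6 CPM in the clones. Control lines 2 and 3 were the highest libraries and clone 3 the lowest, and Control line 1 lay among the clones. The log2 fold change was -0.31 (SE 0.17). Clone 1 was 0.761-fold the mean of Control lines 2 and 3, while clones 2 and 3 averaged 0.978-fold Control line 1. Its exons share 1109 bases with AP3M1 on the other strand, which was at 77.6 ± 4.30 CPM in Control and 70.1 ± 2.02 CPM in the clones. The strand setting of the counting is not given in the sources used here, so reads from that stretch cannot be told apart. The nearest profiles to VCL were RBBP9 (0.051), TTYH3 (0.057) and STAT3 (0.057), against a median of 0.31.

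The other pathway genes fell into 8 lists, apart from the reference genes, and of the 122 tested genes on them 0 passed in edgeR. Without adjustment, 23 of the 122 had p under 0.05 and higher levels in the clones, where 9.23% of all genes did, and 11 had lower levels, where 8.6% did. DESeq2 called 10 of them higher (1.91% of all genes) and 2 lower (2.07% of all genes). The median log2 fold change was 0.089. The lists hold genes of known function but were drawn up with earlier results of these libraries known, and no list was tested as a set.

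**Figure D4:**
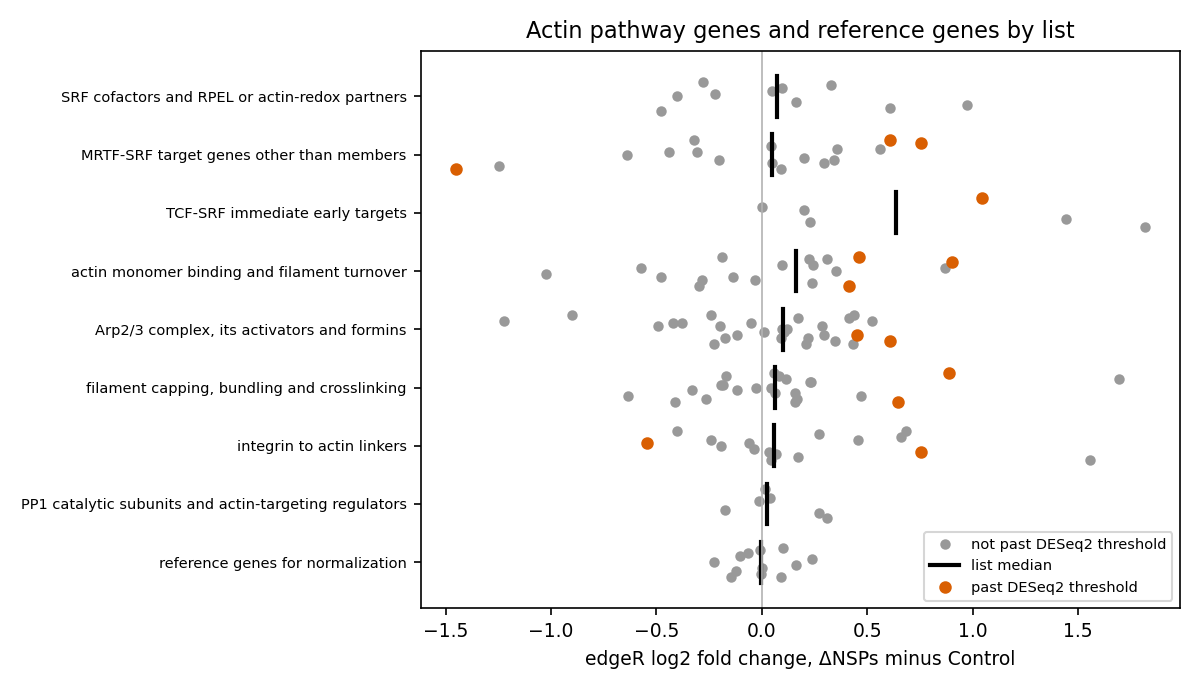
Each point is the edgeR log2 fold change (ΔNSPs minus Control) of 1 tested gene, by list; black bars are list medians and orange points genes past the DESeq2 threshold. Medians of 8 lists lie between -0.0058 and 0.16, while that of the 6 TCF-SRF immediate early targets is 0.64.

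Among the other MRTF-SRF targets 17 were tested, with 0 calls in edgeR, 3 higher and 2 lower with an edgeR p under 0.05 before adjustment, 2 higher and 1 lower in DESeq2, and a median of 0.049. TPM1, which encodes a tropomyosin that coats filaments, was at 16.7, 18.2 and 17.7 CPM in Control and at 24.9, 27.5 and 27.7 CPM in the clones. All clones exceeded all Control lines (log2 fold change 0.61, SE 0.12; edgeR adjusted p = 0.160; DESeq2 adjusted p = 0.0145). ZYX, the focal adhesion protein zyxin, was at 303, 226 and 218 CPM in Control and at 290.5, 424 and 547 CPM in the clones. Clone 1 lay below Control line 1, so the groups overlapped (edgeR adjusted p = 0.189; DESeq2 adjusted p = 0.0318). ITGA5, the fibronectin receptor chain, was at 443 ± 72.0 CPM in Control and 384 ± 27.7 CPM in the clones (edgeR adjusted p = 0.460). Smooth muscle type targets were scarce: ACTG2 and CNN1 are not analysed here, TAGLN was at 0.724 to 1.51 CPM, and CALD1, CCN1 and CCN2 were too low to test.

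The 6 tested TCF-SRF targets had the highest list median, 0.64, with 0 calls in edgeR, 3 higher (IER2, EGR1 and FOSB) and 0 lower with an edgeR p under 0.05 before adjustment, where 9.23% of all genes were higher, and 1 (IER2) in DESeq2. IER2, an immediate early gene, was at 74.2, 59.6 and 66.2 CPM in Control and at 103, 133 and 176 CPM in the clones (edgeR adjusted p = 0.160; DESeq2 adjusted p = 0.000154). Every clone was above every Control line. MCL1, a survival gene of the BCL2 family, was at 155 ± 5.96 CPM in Control and 178 ± 16.3 CPM in the clones (edgeR adjusted p = 0.345). EGR1 and FOSB, named after their values were seen, had the highest log2 fold changes of the list, 1.82 (SE 0.61) and 1.44 (SE 0.31). Their levels were no more than 5.37 and 2.78 CPM. For MCL1 and NR4A1 the log2 fold changes were 0.20 and 0.23. FOS was at 1.88 to 2.69 CPM in Control and 2.11 to 2.21 CPM in the clones.

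Genes of monomer binding and filament turnover had a median of 0.16 over 18 tested genes, with 0 edgeR calls, 4 higher and 1 lower with an edgeR p under 0.05 before adjustment, and 3 higher DESeq2 calls. CORO1A, the leukocyte coronin, was at 921, 676 and 689 CPM in Control and at 969, 1545 and 1764 CPM in the clones (edgeR adjusted p = 0.171; DESeq2 adjusted p = 0.00527). Clone 1 exceeded Control line 1 only narrowly, and clones 2 and 3 stood far above both. CFL1, the filament-severing cofilin, was at 684 ± 31.9 CPM in Control and 909.7 ± 76.9 CPM in the clones (edgeR adjusted p = 0.171; DESeq2 adjusted p = 0.0264). PFN1, profilin, which loads monomers onto growing ends, was at 1057 ± 90.4 CPM and 1454 ± 187 CPM (edgeR adjusted p = 0.178; DESeq2 adjusted p = 0.0400). The groups did not overlap for these 3 genes.

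TMSB4X, which encodes thymosin beta-4, the main store of actin monomers, had a profile opposite to that of MRTFA. It was at 1355, 3246 and 3560 CPM in Control and at 2258, 1339 and 1880 CPM in clones 1 to 3. Control lines 2 and 3 and clone 1 held the highest levels, where MRTFA was lowest, and the groups overlapped (log2 fold change -0.58, SE 0.34; edgeR adjusted p = 0.407). The comparison of both profiles was made after the values were seen.

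The list of Arp2/3 subunits, activators and formins, which nucleate filaments, had a median of 0.10 over 28 tested genes, with 0 edgeR calls, 5 higher and 4 lower with an edgeR p under 0.05 before adjustment, and 2 higher DESeq2 calls. ARPC5L, a variant Arp2/3 subunit, was at 49.1, 48.0 and 48.6 CPM in Control and at 80.2, 74.6 and 67.1 CPM in the clones (edgeR adjusted p = 0.160; DESeq2 adjusted p = 0.00210). FMNL1, a leukocyte formin, was at 110.3 ± 6.80 CPM and 151 ± 17.4 CPM (edgeR adjusted p = 0.171; DESeq2 adjusted p = 0.0393). In both genes clone 1 lay well above the Control lines, unlike in CORO1A. The core subunits ACTR2 and ACTR3 had the highest levels of the list. For ACTR2 the log2 fold change was 0.21 (SE 0.13) and for ACTR3 it was -0.052 (SE 0.15). WASF1, NCKAP1L, CYFIP1 and DIAPH3, named after their values were seen, were lower in every clone than in every Control line. Their log2 fold changes were -0.38, -0.24, -0.20 and -0.42, and none passed in edgeR or DESeq2. Such non-overlap with the clones lower was found in 4 of the 28 genes and in 1726 of the 14797 tested. With the clones higher it was found in 6 of the 28, against 12.2% of all genes. Nothing is read from these counts.

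Capping, bundling and crosslinking genes had a median of 0.064 over 23 tested genes, with 0 edgeR calls, 4 higher and 2 lower with an edgeR p under 0.05 before adjustment, and 2 higher DESeq2 calls. CAPG was at 232, 239 and 248 CPM in Control and at 301, 489 and 541 CPM in the clones (edgeR adjusted p = 0.171; DESeq2 adjusted p = 0.00284). AIF1, an actin-bundling protein of macrophages, was at 122 ± 25.9 CPM in Control and 191 ± 43.0 CPM in the clones (edgeR adjusted p = 0.189; DESeq2 adjusted p = 0.0467). For LCP1, the leukocyte plastin, the log2 difference was 0.11 (SE 0.14). For MSN, which encodes moesin, a link from filaments to the membrane, it was 0.47 (SE 0.14; edgeR adjusted p = 0.185).

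Linkers from integrins to actin had a median of 0.057 over 16 tested genes, with 0 edgeR calls, 3 higher and 2 lower with an edgeR p under 0.05 before adjustment, and 1 gene each way in DESeq2, ZYX and PARVB. PARVB, parvin beta, was at 37.9, 37.0 and 36.9 CPM in Control and at 28.4, 23.9 and 24.3 CPM in the clones, lower in all 3 (log2 fold change -0.54, SE 0.11; edgeR adjusted p = 0.160; DESeq2 adjusted p = 0.0197). LASP1, an actin-binding adhesion protein, was level (log2 fold change 0.032, SE 0.097). The list's mean centred log2 CPM followed the split seen in MRTFA, at 0.16, -0.26 and -0.15 in Control lines 1 to 3 and -0.29, 0.30 and 0.25 in clones 1 to 3. ENAH, which encodes a filament elongation factor of the Ena/VASP family and was named after its values were seen, was at 11.1, 0.217 and 1.30 CPM in Control and 0.143, 20.3 and 16.7 CPM in the clones. Much of the list's pattern came from that gene: over the other 15 the means were 0.036, -0.081 and -0.095 in Control and -0.092, 0.13 and 0.10 in the clones, with the same libraries high and low. This list's profile was singled out after the values were seen. The other MRTF-SRF targets did not follow the split seen in MRTFA. Their means were -0.042, 0.071 and 0.12 in Control lines 1 to 3 and -0.054, 0.11 and -0.21 in clones 1 to 3.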

How the data were processed

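For 6 libraries the authors deposited a single count table: raw reads per Ensembl gene, whole numbers, not normalized. The tools named, per the submitters' processing notes, HISAT2 2.0.0, HTSeq 0.11.1, SAMtools 1.5.9 and FastQC, and the build GRCh38.p12. Which annotation and which strand option were used is not given in the sources used here. Each gene in the table had a total of 10 counts or more. Symbols and GRCh38 positions were taken from GENCODE v29, which held 18771 of the 18798 identifiers.

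Counts were tested in edgeR 4.0.16 (R 4.3.3) with TMM factors, filterByExpr and two-sided quasi-likelihood tests, with p-values adjusted by Benjamini-Hochberg over 14797 genes and a threshold of 0.05. DESeq2 1.42.0 and limma 3.58.1 (voom with sample weights) were run as alternatives. CPM used TMM-scaled totals. Profiles used log2 CPM with a prior count of 2, and neighbouring genes needed an average of 8 CPM.

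Members and lists were chosen with earlier results of these data known. A further list that had been planned is not reported here, and its genes are left out of the counts over lists. The rule for naming list genes took all edgeR calls, up to 3 DESeq2 calls and the 2 highest means per list. Other list genes, such as MRTFB, EGR1, FOSB, FOS, NR4A1 and TAGLN, were named outside this rule. Nearest profiles were sought for the 3 members of widest range. Groups and replicate numbers came from the titles. Libraries within a group differed far beyond sampling noise (chi-square over degrees of freedom at least 7.65). P-values set the group difference against the variation within groups, which holds line or clone differences and technical differences together.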

Additional observations from a re-analysis of the deposited data

How the results depend on the processing

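Of 117 member values under the alternatives run (size factors, filters, the other 2 tools, the replicate block, and each library left out), 115 kept their sign and moved by less than the pooled SD of log2 CPM within groups. The 2 exceptions were for FLNA, whose log2 fold change ran from -0.12 without clone 2 to 0.10 without clone 1 and was -0.0058 without Control line 1. Leaving out 1 library shifts a group mean by only part of that SD, so the size limit could hardly fail there. MRTFA, at 0.43 without clone 2 and 1.28 without Control line 1, was counted among the 115. DESeq2 called 515 genes, 1 member and 12 list genes (of 134, reference genes included); the cause was not tested. Nothing is read from the member counts, since the members were chosen with these values known. Leaving out 1 library gave 0 genes (without Control line 2 or 3) to 928 genes (without clone 1), 0 to 1 members and 0 to 22 list genes, the highest counts all without clone 1. Without Control line 1 there were 20 genes, and without clone 3 there was 1. With the replicate number as a block edgeR called 0 genes, with 1779 at an unadjusted p under 0.05, and 0 members and list genes. Same-numbered libraries correlated at -0.432, -0.161 and -0.140 in their deviations from the group means. Whether same-numbered libraries were handled together was not tested. The 9 members in the table had at least 235 counts in each library.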
